A study of Mus musculus with 6 samples.

Results

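Tex genes are genes that were named because their transcripts were found in the testis. The name marks where they are expressed and not a shared sequence, so the proteins have unrelated roles in germ cells. The 8 genes described here, Tex19.1, Tex19.2, Tex101, Tex11, Tex13a, Tex14, Tex15 and Tex16, are picked out of 26496 gene symbols by a rule that names their symbols. The rule uses no measured value, but it was set with earlier results of these data known. All 8 had at least 1 transcript in the deposited tables. Tex19.1 and Tex19.2 lie on chromosome 11 as does Tex14, Tex101 lies on chromosome 7, Tex15 on chromosome 8, and Tex11, Tex13a and Tex16 on chromosome X. Their Ensembl identifiers are ENSMUSG00000039329 (Tex19.1), ENSMUSG00000039337 (Tex19.2), ENSMUSG00000062773 (Tex101), ENSMUSG00000009670 (Tex11), ENSMUSG00000071686 (Tex13a), ENSMUSG00000010342 (Tex14), ENSMUSG00000009628 (Tex15) and ENSMUSG00000034555 (Tex16).

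The libraries were made from cap mesenchyme. These cells surround the ureteric tips of the embryonic kidney and hold the nephron progenitors, and were sorted by flow cytometry at embryonic day 18.5 from C57BL/6 mice. The knockout group (KO, labelled Dnmt1 -/-, 3 libraries) had both conditional Dnmt1 alleles deleted by Six2.Cre, and the heterozygous group (HET, labelled Dnmt1 +/-, 3 libraries) had 1. All 6 libraries therefore carry Six2.Cre and at least 1 deleted allele, and no library without either is analysed here. Cre acts in cells in which the Six2 regulatory sequence is active, and the labels do not say whether a library came from 1 embryo or from pooled kidneys.

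Dnmt1 copies methylation onto the new DNA strand after replication. The promoters of many germline genes are methylated in somatic cells of the mouse, and these genes are silent there. In germ cells the members act at several steps. Tex19.1 and Tex19.2 restrain transposable elements, Tex15 serves the silencing of transposons that is guided by piRNA, Tex11 acts in meiotic recombination, Tex14 keeps dividing germ cells joined by bridges, and Tex101 is a surface protein of male germ cells that mouse sperm need for fertilisation. The roles of Tex13a and Tex16 are not described here.

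The promoters of the rising members for which a sequence was found are shown because Dnmt1 acts on CpG sites. RefSeq promoter sequences (GRCm38.p6, 250 bases before and 50 after the annotated start) matched 5 of the 8 members. Tex11, Tex13a and Tex15 were not matched. Each sequence is written 5′ to 3′ on the strand of the gene, with CpG sites in capitals. The windows are chr11:121145893-121146192 on the plus strand for Tex19.1, chr11:121118628-121118927 on the minus strand for Tex19.2, chr7:24672001-24672300 on the minus strand for Tex101, and chr11:87404815-87405114 on the plus strand for Tex14.
Tex19.1: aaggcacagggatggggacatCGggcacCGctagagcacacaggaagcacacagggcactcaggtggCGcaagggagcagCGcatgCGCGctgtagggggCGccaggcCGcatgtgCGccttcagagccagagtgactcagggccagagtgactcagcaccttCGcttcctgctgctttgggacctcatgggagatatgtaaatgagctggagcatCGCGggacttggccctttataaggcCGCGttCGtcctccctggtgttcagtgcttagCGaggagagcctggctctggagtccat
Tex19.2: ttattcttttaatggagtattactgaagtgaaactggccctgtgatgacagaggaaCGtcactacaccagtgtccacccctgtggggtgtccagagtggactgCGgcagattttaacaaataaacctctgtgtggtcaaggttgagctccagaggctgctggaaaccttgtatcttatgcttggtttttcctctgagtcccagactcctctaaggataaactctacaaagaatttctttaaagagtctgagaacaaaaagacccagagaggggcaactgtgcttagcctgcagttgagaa
Tex101: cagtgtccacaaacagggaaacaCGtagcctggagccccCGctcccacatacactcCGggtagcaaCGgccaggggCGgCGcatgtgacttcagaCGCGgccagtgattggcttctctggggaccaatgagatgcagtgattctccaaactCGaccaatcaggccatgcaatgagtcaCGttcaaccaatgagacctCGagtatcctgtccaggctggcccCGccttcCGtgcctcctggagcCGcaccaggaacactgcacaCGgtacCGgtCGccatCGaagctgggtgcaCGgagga
Tex14: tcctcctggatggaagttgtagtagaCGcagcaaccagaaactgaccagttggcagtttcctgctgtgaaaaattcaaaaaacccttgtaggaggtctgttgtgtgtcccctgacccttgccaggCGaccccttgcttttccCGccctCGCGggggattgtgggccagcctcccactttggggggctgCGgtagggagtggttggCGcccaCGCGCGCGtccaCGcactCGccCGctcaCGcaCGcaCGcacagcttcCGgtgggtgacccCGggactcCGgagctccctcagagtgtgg

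These windows held 16 CpG sites for Tex19.1, 19 for Tex101 and 20 for Tex14, against a median of 7 over 32851 promoters of the same length. Of all promoters 67.0% held fewer sites than Tex19.1, 71.9% fewer than Tex101 and 73.5% fewer than Tex14, so such counts are common. The Tex19.2 window held 2, although Tex19.2 rose as well, and the Tex16 window (chrX:112093270-112093569, plus strand, not shown) held 0. The ratio of observed to expected CpG was 0.58 for Tex19.1, 0.7 for Tex101, 0.69 for Tex14, 0.13 for Tex19.2 and 0 for Tex16, and 35.8% of all promoters reached 0.6. Both strands were searched for TCCCGC, letters bound by E2F6, a repressor of germline genes, and for the E-box CACGTG. The E2F6 letters occurred once in the Tex19.1 window, at position -33 from the annotated start, and once in the Tex14 window, at position -111. They were in 20.0% of all promoters. The E-box was in none of the 5 windows and in 7.15% of all promoters. A match is a description of letters and not a measured site.

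Libraries held between 46741667 and 61585484 estimated counts, so 3 counts, the floor used for a group at 0, were worth between 0.051 and 0.0662 CPM (counts scaled to a common total and for composition). Dnmt1 was at 20.9, 18.6 and 14.9 CPM in KO and at 40.0, 52.4 and 51.7 CPM in HET libraries (adjusted p = 0.000265 by the quasi-likelihood test of edgeR, with Benjamini-Hochberg adjustment over all genes tested, as for each edgeR p from here on). Dnmt1 RNA was thus lower but not absent in KO libraries, and the source of what remained was not tested. Of 16955 genes tested, 839 (4.95%) were higher and 333 (1.96%) lower in KO, or 6.91% in all, at an adjusted p under 0.05. At an unadjusted edgeR p under 0.05, 2105 were higher and 1635 lower. DESeq2 called 1318 higher and 626 lower. Scaling to library totals gave 731 higher and 1887 lower, with the median log2 ratio of all genes at -0.166, and log2(TPM + 1) gave 442 and 658 with a filter (median -0.127) and 543 and 367 without it (median -0.041). With log2(TPM + 0.1) the split was 436 and 644 (median -0.142). Summed markers of cap mesenchyme were at 1246 to 1522 CPM in KO and 1711 to 1822 CPM in HET libraries. Of these 10 genes 2, Cited1 and Wt1, were lower by edgeR, against 1.96% of all genes tested. By Y-linked transcripts KO replicate 2 and HET replicates 1 and 3 were called male. Their Y-linked sums were 185, 309 and 256 CPM, against 7.78 to 10.4 CPM in the libraries called female. Whether a library held cells of both sexes was not tested.

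KO replicate 1 stood furthest apart in markers of other cell types. Summed endothelium markers (8 genes, 1 called higher by edgeR and 3 by DESeq2) were at 163, 68.0 and 36.8 CPM in KO replicates 1 to 3. In HET libraries the endothelium sum was 21.1 to 31.7 CPM. Summed stroma markers were at 831, 402 and 331 CPM in KO and at 254 to 326 CPM in HET libraries. Summed ureteric bud markers (7 genes, 1 called higher) were at 66.1, 42.4 and 28.3 CPM in KO and at 22.0 to 32.8 CPM in HET libraries. The calls of the Tex genes, of their partners and of Sectm1a were therefore also made without KO replicate 1. KO replicates 2 and 3 also lay above every HET library in the endothelium and stroma sums, so leaving out KO replicate 1 does not remove this difference. In the ureteric bud sum KO replicate 3 lay within the HET range. In bulk RNA a change in the number of cells of a type and a change in RNA per cell cannot be told apart.

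Of the 8 Tex genes, 6 rose in KO cap mesenchyme, 1 did not pass and 1 had no counts. Tex101 and Tex19.2 were at 0 in every HET library, Tex19.1 nearly so, and Tex11, Tex14 and Tex15 had a low HET level that rose. The groups did not overlap for these 6 genes, against 14.8% of all genes tested with KO higher and 14.2% with KO lower. The median fitted log2 fold change over the 7 members tested was 4.68, also with the genes at 0 placed at their bound, against -0.003 over all genes tested. None of the 7 was lower by edgeR, at an unadjusted p under 0.05 or by DESeq2. Tex19.1, Tex19.2 and Tex101 passed the filter on low counts through the KO libraries alone, since no HET library reached its level of 0.196 CPM, so this count and median are given as descriptions only. Leaving out any 1 library, KO replicate 1 included, kept all 6 calls.

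**Figure D1:**
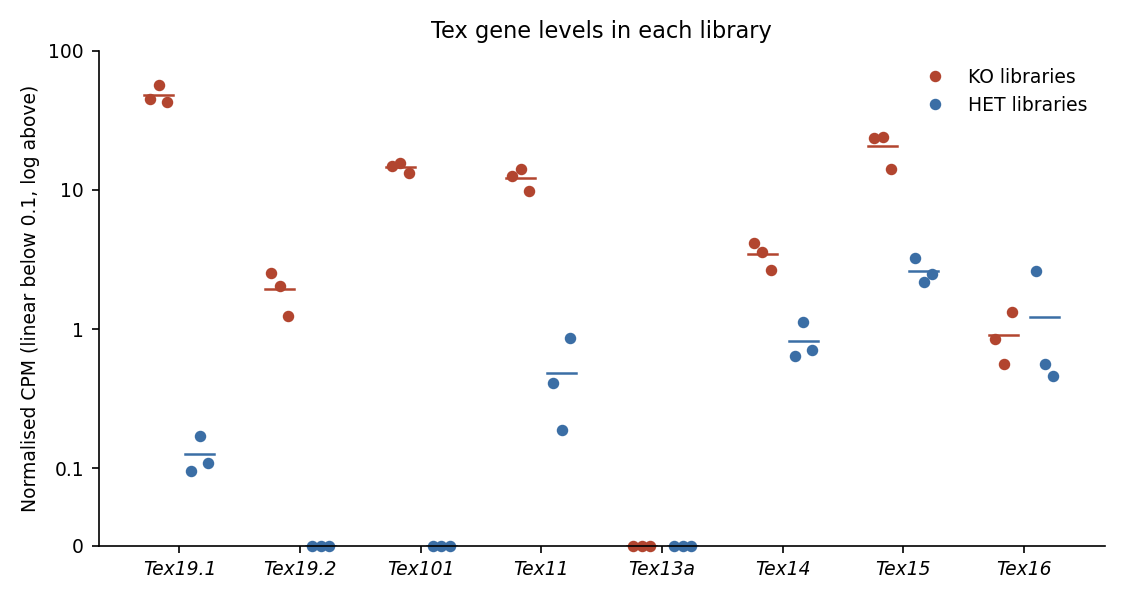
Normalised CPM of each Tex gene (vertical axis, linear below 0.1 and logarithmic above) in the 3 KO libraries (left, red) and the 3 HET libraries (right, blue), with a bar at each group mean. KO libraries lie above HET libraries for 6 genes, Tex16 overlaps between the groups, and Tex13a is at 0 throughout.

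The Tex19 pair, which restrains transposons, was at or near 0 in HET libraries. Tex19.1, which binds the ubiquitin ligase Ubr2 in mouse germ cells, had 2122, 2917 and 2191 estimated counts in KO libraries and 5, 10 and 5 in HET libraries. The lowest KO library was at 43.0 CPM and the highest HET library at 0.17 CPM. The CPM means were 48.1 ± 7.13 in KO and 0.126 ± 0.0389 in HET (SD, n = 3 each), which differed on the log2 scale by 8.52 ± 0.22 (SE, edgeR adjusted p = 3.51e-09). Its neighbour Tex19.2, a paralog, had 119, 106 and 63 counts in KO and 0 in all 3 HET libraries. At 1.94 ± 0.650 CPM in KO (SD, n = 3) it was higher by a factor of at least 33.1, taking 3 counts for each HET library (edgeR adjusted p = 0.00019). Of the 31-mers in its transcript, 5.85% also occur in Tex19.1, so most of the sequence separates the pair.

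Sectm1a, a gene beside the pair, rose too. The pair lies at 121007457 to 121009633 (Tex19.1, plus strand) and 120977529 to 120979991 (Tex19.2, minus strand) on chromosome 11 of NCBIM37, the build of all gene coordinates from here on, 27466 bases apart. The next protein-coding gene beyond Tex19.2, Sectm1a, which encodes a secreted and transmembrane protein, had 25.5, 35.6 and 28.4 CPM in KO libraries and 0.0194, 0.051 and 0 CPM in HET libraries. Its log2 fold change was 10.05 ± 0.35 (SE, edgeR adjusted p = 4.67e-08), or 11.18 without HET replicate 2, and it was named after its values were seen. Among 12 other genes tested within 250 kb of Tex19.1, Sectm1a and Tex19.2 were higher, against 4.95% of all genes tested. Both were below the level of 0.196 CPM of the filter on low counts in every HET library. They passed it through the KO libraries alone, so this count is a description. None was lower by edgeR. At an unadjusted p under 0.05, 2 were higher and 1 lower, against 2105 and 1635 of all 16955 genes tested. By DESeq2 2 were higher and 0 lower, against 1318 and 626. Csnk1d, a kinase gene on the far side of Sectm1a, was at 107, 127 and 107 CPM in KO and at 84.7, 106 and 107 CPM in HET libraries (edgeR adjusted p = 0.340).

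**Figure D2:**
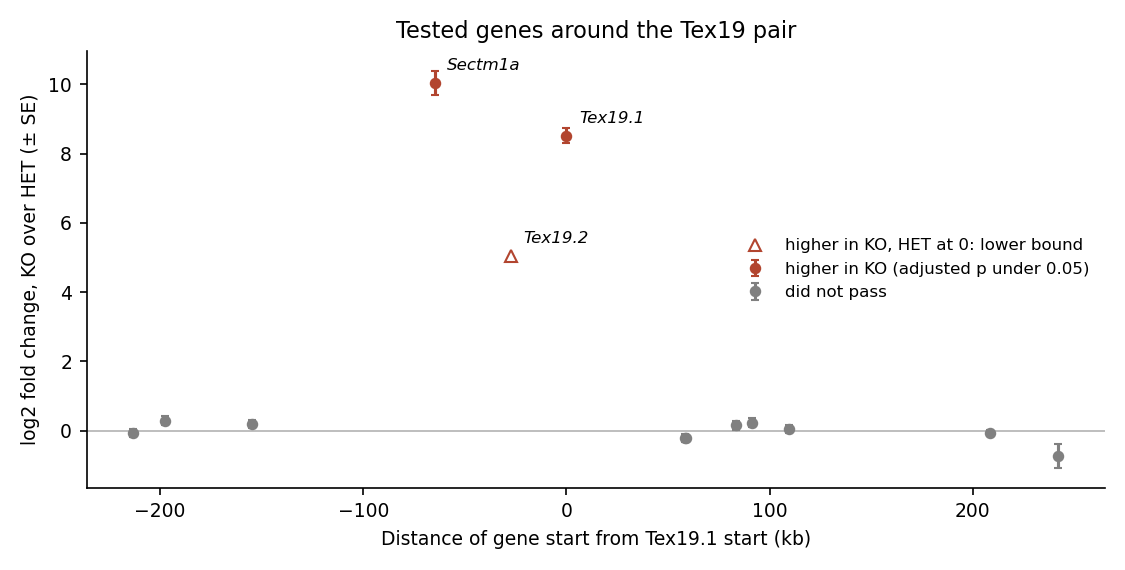
log2 fold change of KO over HET with its SE (vertical axis) for the genes tested within 250 kb of Tex19.1, by distance of the gene start from the Tex19.1 start in kb (horizontal axis). Sectm1a, Tex19.2 and Tex19.1 sit next to each other far above 0, Tex19.2 as a lower bound because HET was at 0, while the other 10 genes lie between -0.73 and 0.28.

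Tex101 had the highest fitted fold change of the members. The gene (25453031 to 25457069, minus strand, 1 transcript) had 696, 802 and 673 estimated counts in KO libraries and 0 in all 3 HET libraries. The KO libraries lay close together, at 14.5 ± 1.15 CPM (SD, n = 3), which made the gene at least 247-fold higher than 3 counts per HET library would be (edgeR adjusted p = 4.22e-07). Its rank by fitted fold change was 8 of 16955, a rank that for genes at 0 depends on the prior count. In all, 5226 genes had 0 counts in all HET libraries, and 97 of them (1.86%) reached at least 10 counts in every KO library, among them Tex101 and Tex19.2. Of 13 other genes tested within 250 kb of Tex101, 4 were higher (2310033E01Rik, Cd79a, Ethe1 and Zfp575, named after their values were seen), against 4.95% of all genes tested. None was lower by edgeR. At an unadjusted p under 0.05, 7 were higher and 1 lower, against 2105 and 1635 of all 16955 genes tested. By DESeq2 5 were higher and 0 lower, against 1318 and 626.

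Both listed partners of Tex101 were higher in KO. Ly6k, a surface protein that associates with Tex101 in mouse testis, was at 0.891, 1.66 and 1.43 CPM in KO and at 0 in all HET libraries, at least 22.7-fold higher. Dpep3, a dipeptidase of testicular germ cells that binds Tex101, was at 5.88 ± 1.87 CPM in KO and 0.0316 ± 0.0409 CPM in HET (SD, n = 3 each). The edgeR adjusted p values were 0.000376 and 5.74e-05, and both calls held under every alternative that gave a value. Both genes passed the filter on low counts through the KO libraries alone, so that both were higher is a description. Transcripts of the last stage of sperm formation were at or near 0 in both groups. All 7 late spermatid markers, Prm1, Prm2, Tnp1, Tnp2, Acrv1, Odf1 and Spem1, stayed under 1 CPM in every library, Prm2 at 0. Their sum was 0.334 to 0.424 CPM in KO and 0.306 to 0.817 CPM in HET libraries.

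Tex11, an X-linked relative of the yeast recombination protein Zip4, had 596, 731 and 502 estimated counts in KO libraries and 21, 11 and 39 in HET libraries. The lowest KO library was at 9.86 CPM and the highest HET library at 0.861 CPM. The log2 fold change was 4.68 ± 0.47 (SE, edgeR adjusted p = 0.000642), 5.05 with the sex of the libraries as a covariate and 5.36 without HET replicate 3. The KO library called male had 14.1 CPM and those called female 12.6 and 9.86 CPM. The increase fell almost wholly on transcripts with the outer of a pair of 5′ ends that are 28 bases apart. Both transcripts with the outer end together had 561.1, 679.8 and 406.8 counts in KO libraries and 0.0 in each HET library. The transcript with the inner end had 34.9, 51.2 and 95.2 counts in KO and 21, 11 and 39 in HET libraries. The transcripts share 23 or more of their 25 to 30 exons, so kallisto divided these reads on little sequence and the division is uncertain. The gene spans 98033987 to 98255006 on the minus strand. Within 250 kb of it 12 genes were tested and none was called by edgeR, against 6.91% of all genes tested. Of the 12, 1 was higher at an unadjusted p under 0.05, against 2105 of all 16955 genes tested. By DESeq2 1 was higher, against 1318.

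Crossover genes that act with Tex11 were divided. Of 10 listed, 8 were tested and 3 were higher, against 4.95% of all genes tested. Ccnb1ip1 (Hei10, a ligase that marks future crossovers) was at 6.46 ± 1.28 CPM in KO and 0.356 ± 0.117 CPM in HET, and Sycp2, a protein of the meiotic chromosome axis, was at 3.07 ± 0.971 CPM in KO and 0.272 ± 0.148 CPM in HET (SD, n = 3 each). On the log2 scale Ccnb1ip1 changed by 4.16 ± 0.32 and Sycp2 by 3.47 ± 0.45 (SE, edgeR adjusted p = 1.82e-05 and 0.000913), and the Sycp2 call was lost on log2(TPM + 1) without a filter (adjusted p = 0.08). Shoc1, the relative of yeast Zip2, listed as AI481877, had a log2 fold change of 1.38 ± 0.32 (SE, edgeR adjusted p = 0.0302). That call was lost without any 1 of 5 libraries, all but HET replicate 1, and in 2 further analyses, with adjusted p between 0.00628 and 0.116 over 18 alternatives. Nbn, Msh5, Hfm1 and Mlh3 had log2 fold changes between -0.30 and 0.14 and did not pass. None of the 8 was lower by edgeR, at an unadjusted p under 0.05 or by DESeq2, but Msh5 was lower on the TPM scale with either pseudocount. Msh4 and Rnf212 were too low to test, at no more than 0.0579 and 0.0972 CPM in any library.

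Tex15 had a HET level well above the floor in every library. It had 1116, 1248 and 723 estimated counts in KO libraries and 166, 128 and 113 in HET libraries. The CPM means were 20.6 ± 5.58 in KO and 2.63 ± 0.539 in HET (SD, n = 3 each), which differed on the log2 scale by 2.97 ± 0.24 (SE, edgeR adjusted p = 5.06e-05). With an offset for transcript length the difference was 3.65 (edgeR adjusted p = 3.82e-05). The gene (34627210 to 34696054, plus strand) has transcripts with a distal start and 1 transcript with a start at least 53.2 kb further in. The 3 transcripts with a distal start had 369.9, 495.8 and 244.0 counts in KO libraries and 4.8, 30.8 and 20.3 in HET libraries. The transcript with the proximal start had 746.1, 752.2 and 479.0 counts in KO and 161.2, 97.2 and 92.7 in HET libraries. Summed over libraries the distal set made 1109.6 counts in KO and 55.9 in HET, and the proximal transcript 1977.4 in KO and 351.1 in HET. No test was run on single transcripts. One distal transcript shares 3 exons with the proximal one and the other 2 share no listed exon. Of those 2, the one of 4014 bases ends at 34684030, past the proximal start at 34681016. It may overlap the proximal transcript within an exon, so the division is uncertain.

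**Figure D3:**
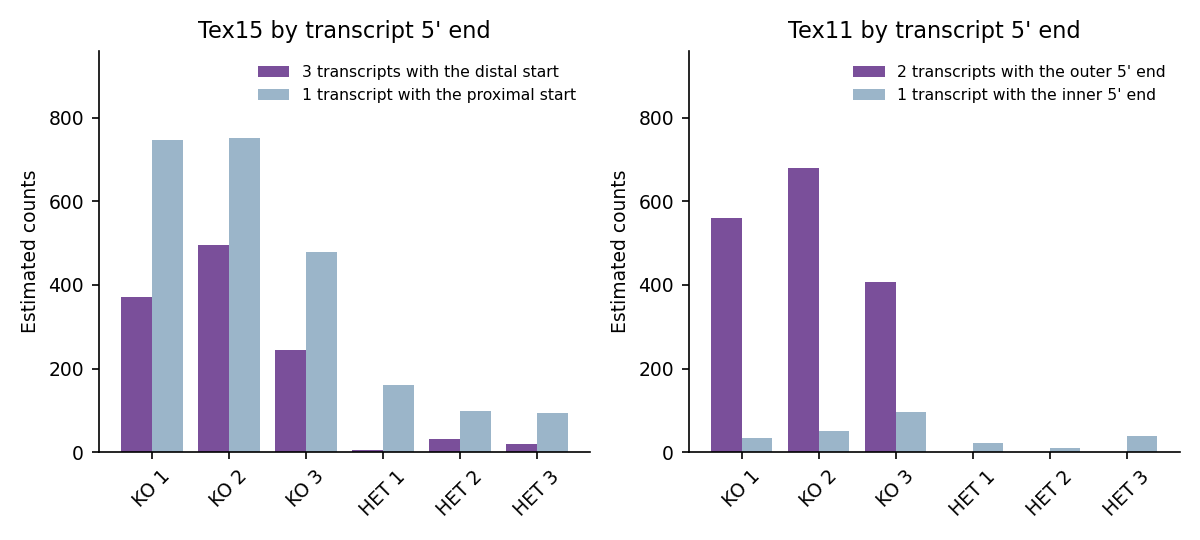
Estimated counts (vertical axis) of Tex15 (left) and Tex11 (right) in each KO and HET library, split by the 5′ end of the transcripts. Tex15 had counts on both sets in KO libraries and mostly on the proximal transcript in HET libraries, and Tex11 had 0.0 counts on the outer 5′ end in HET libraries.

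Genes that serve silencing guided by piRNA beside Tex15 were mostly low. Mael, a protein of the piRNA pathway, was at 2.44, 4.22 and 2.59 CPM in KO and at 0, 0.017 and 0 CPM in HET libraries. From 1 count in the HET group its ratio was 482, with an exact 95% binomial counting interval of 86.2 to 19097 (edgeR adjusted p = 1.62e-05). Piwil4, the nuclear Piwi protein of fetal germ cells, was at 1.36 ± 0.293 CPM in KO and 1.44 ± 0.361 CPM in HET (SD, n = 3 each; edgeR adjusted p = 0.908). Spocd1, needed with Piwil4 for methylation of young transposons in mice, and Dnmt3l, a cofactor of new methylation, were too low to test. Spocd1 was at 0.0212, 0 and 0 CPM in KO and at 0 in all HET libraries. Dnmt3l was at 0.212, 0.193 and 0.413 CPM in KO and at 0, 0.051 and 0.0221 CPM in HET libraries.

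Tex14, an inactive kinase that blocks the final cut of dividing germ cells, passed the test on counts but not on TPM, the unit scaled by transcript length. It had 196.0, 185.1 and 134.7 estimated counts in KO libraries and 32.6, 66.2 and 32.1 in HET libraries. The CPM means were 3.46 ± 0.758 in KO and 0.824 ± 0.261 in HET (SD, n = 3 each), and the log2 fold change of 2.06 ± 0.32 (SE) passed the test (edgeR adjusted p = 0.00301). In TPM the KO libraries were at 1.46, 1.81 and 2.50 and the HET libraries at 1.83, 0.962 and 0.973, and these overlap. On log2(TPM + 1) the difference was 0.38 (limma, adjusted p = 0.253), and with an offset for transcript length in edgeR it was 0.78 (adjusted p = 0.224).

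Tex14 has 2 short transcripts whose few counts weigh heavily in TPM. These transcripts, of 444 and 455 bases, held 0.503, 0.895 and 1.60 TPM in KO libraries and 1.74, 0.582 and 0.855 TPM in HET libraries. The rest of the gene, led by the transcript of 4763 bases with 31 exons, held 0.954, 0.911 and 0.894 TPM in KO libraries and 0.0948, 0.380 and 0.118 TPM in HET libraries, and those do not overlap. With transcripts under 500 bases left out of every gene, an analysis chosen after the data were seen, Tex14 had a log2 fold change of 2.47 ± 0.49 in edgeR, and of 2.31 ± 0.50 with the length offset (SE, adjusted p = 0.0142 and 0.0229). The short transcript of 444 bases carried 5.93% of the counts of the gene in KO and 28.3% in HET, but 39.2% of its TPM in KO and 79.3% in HET.

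**Figure D4:**
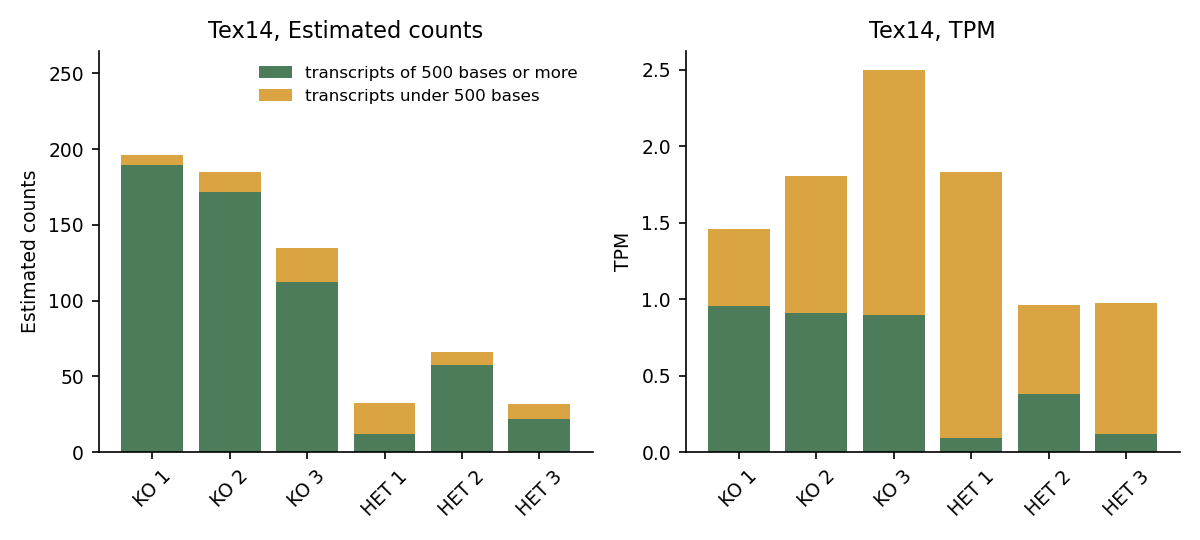
Tex14 in each KO and HET library as estimated counts (left) and TPM (right), stacked by transcript length, at least 500 bases in green and under 500 bases in yellow. The green part lies between 0.894 and 0.954 TPM in KO and between 0.0948 and 0.380 TPM in HET libraries, whereas the yellow part overlaps between the groups.

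No gene of the abscission machinery that Tex14 blocks passed the test. Cep55, Pdcd6ip (Alix), Tsg101, Kif23 and Plk1, which somatic cells also use, had log2 fold changes between -0.19 and 0.27. None of the 5 passed in edgeR, with 1 higher and 1 lower at an unadjusted p under 0.05 and 1 higher (Tsg101) by DESeq2. Over all 16955 genes tested these counts were 2105, 1635 and 1318. Tsg101, a protein that helps to cut the bridge between daughter cells, was at 115 ± 5.53 CPM in KO and 95.4 ± 4.36 CPM in HET (SD, n = 3 each; edgeR adjusted p = 0.0667). Tex14 spans 87218567 to 87369325 on the plus strand. Rad51c, a DNA repair gene that ends 111 bases before it, was at 9.93, 10.8 and 7.03 CPM in KO and at 9.22, 8.23 and 7.83 CPM in HET libraries (edgeR adjusted p = 0.704). Within 250 kb of Tex14 11 genes were tested and none was called by edgeR, against 6.91% of all genes tested. Of the 11, 3 were lower at an unadjusted p under 0.05, against 1635 of all 16955 genes tested. By DESeq2 1 was lower, against 626.

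Of the other X-linked members none passed. Tex13a (134742704 to 134744119, minus strand, inside the span of Il1rapl2 on the other strand) had 0 counts in all 6 libraries, which allows up to 0.0662 CPM in the shallowest library by counting error alone. Of the 5226 genes at 0 in HET libraries 72.6% were also at 0 in all KO libraries. Tex16 (109124616 to 109240935, plus strand) had 39.7, 29.0 and 66.9 estimated counts in KO libraries and 135.0, 33.0 and 21.0 in HET libraries, and the groups overlapped. Its log2 fold change was -0.42 ± 0.68 (SE, edgeR adjusted p = 0.755), and without HET replicate 1, the library with 135.0 counts, it was 0.82 (adjusted p = 0.404). Of those 135.0 counts 131.0 lay on both long transcripts together.

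Per length, the members differed in KO level, with overlap between some of them. Tex19.1 was at 31.7 ± 3.78 TPM, Tex101 at 16.9 ± 1.40, Tex15 at 5.57 ± 1.92, Tex11 at 4.23 ± 0.688, Tex14 at 1.92 ± 0.530, Tex19.2 at 1.08 ± 0.390 and Tex16 at 0.768 ± 0.345 TPM in KO (SD, n = 3). Tex15 overlapped with Tex11, Tex14 with Tex19.2 and Tex19.2 with Tex16 over the KO libraries, while the other neighbours in this order did not overlap. In HET libraries Tex14 at 1.26 ± 0.499 TPM and Tex16 at 0.665 ± 0.458 TPM overlapped, Tex15 was at 0.482 ± 0.0294 TPM, Tex11 at 0.177 ± 0.121 TPM and Tex19.1 at 0.0896 ± 0.0249 TPM (SD, n = 3). Tex15 lay within the range of Tex16 there, and Tex11 overlapped with Tex19.1. The places of Tex14 and Tex16 rest in large part on short transcripts with few counts. The Tex16 transcript of 447 bases held 73.2% of its TPM in KO and 47.6% in HET, from 22.6 and 13.0 counts. The Tex14 transcript of 444 bases held 39.2% of its TPM in KO and 79.3% in HET. All 6 rising members had their lowest CPM in KO replicate 3, and 4 had their highest in KO replicate 2. In TPM this did not hold for Tex14, which was highest in KO replicate 3, at 2.50 TPM. KO replicate 3 was also lowest in endothelium markers and in Dnmt1, at 36.8 and 14.9 CPM, and highest in cap mesenchyme markers, at 1522 CPM, and the part of either in the result was not tested.

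Some germ cell markers rose with the Tex genes. Of 7 such markers 4 were higher (Ddx4, Dazl, Mael and Stra8), against 4.95% of all genes tested. Their list summed to 250 to 325 CPM in KO and 7.99 to 11.7 CPM in HET libraries, with Dazl alone at 235 to 303 CPM in KO. Stra8 stayed under 1 CPM in every library. Mael and Stra8 were below the filter level of 0.196 CPM in every HET library, so the count of 4 is a description. Sycp3, Kit and Pou5f1 of that list did not pass, and Mael is also a listed partner of Tex15. The part of these markers in the results was not tested. Of 9 markers of gonadal support and hormone-making cells 6 (Amh, Dhh, Cyp11a1, Cyp17a1, Insl3 and Hsd3b1) stayed under 1 CPM in every library. That list summed to 48.1 to 61.4 CPM in KO and 59.0 to 82.8 CPM in HET libraries, mostly from Sox9, and none of its 3 tested genes was called by edgeR, with 1 lower at an unadjusted p under 0.05 and 0 by DESeq2. Over all 16955 genes tested, 1635 were lower at that unadjusted p and 626 by DESeq2.

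Other genes that carry the name Tex were also examined. Of 11 such genes in the annotation 6 were tested. By edgeR 2 were higher, against 4.95% of all genes tested. None was lower by edgeR, at an unadjusted p under 0.05 or by DESeq2. At an unadjusted p under 0.05, 4 were higher, against 2105 of all 16955 genes tested. By DESeq2 2 were higher, against 1318. The median log2 fold change was 0.237 over the 6, against -0.003 over all genes tested. Of the 2 called, Tex12 passed the filter on low counts through the KO libraries alone, so the count and median are descriptions. Tex12, a protein of the central element that joins paired meiotic chromosomes, had 2.14, 2.31 and 1.41 CPM in KO libraries and 0, 0.034 and 0.0883 CPM in HET libraries (edgeR adjusted p = 0.000472). Tex13, the X-linked gene that RefSeq lists as Tex13b, had 25.2, 22.3 and 21.2 CPM in KO libraries and 1.48, 1.40 and 1.15 CPM in HET libraries. Its log2 fold change was 4.09 ± 0.16 (SE, edgeR adjusted p = 1.03e-07). Both calls held under all 20 alternatives. Tex2, Tex10, Tex261 and Tex264, which were at 6.74 to 89.6 CPM in KO and 7.01 to 78.0 CPM in HET on average, had log2 fold changes between -0.06 and 0.27 and did not pass. Tex9, Tex21, Tex22, Tex24 and Tex28 were too low to test, none above 0.354 CPM in any library.

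Of the listed partner genes of the members, 6 of 18 tested were higher by edgeR, against 4.95% of all genes tested. None was lower by edgeR, against 1.96% of all genes. At an unadjusted p under 0.05, 7 were higher and 2 lower, against 2105 and 1635 of all 16955 genes tested. By DESeq2 7 were higher and 0 lower, against 1318 and 626. The median log2 fold change was 0.123, against -0.003 over all genes tested, and 12 did not pass. Ly6k, Dpep3 and Mael passed the filter on low counts through the KO libraries alone, and Sycp2 reached its level in 2 of 3 HET libraries, so the count and median are descriptions. Scaling to library totals added 2 lower calls, Ubr2 and Pdcd6ip. Ubr2, the partner of Tex19.1, was at 36.6 ± 0.946 CPM in KO and 42.3 ± 2.06 CPM in HET (SD, n = 3 each; edgeR adjusted p = 0.192).

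**Figure D5:**
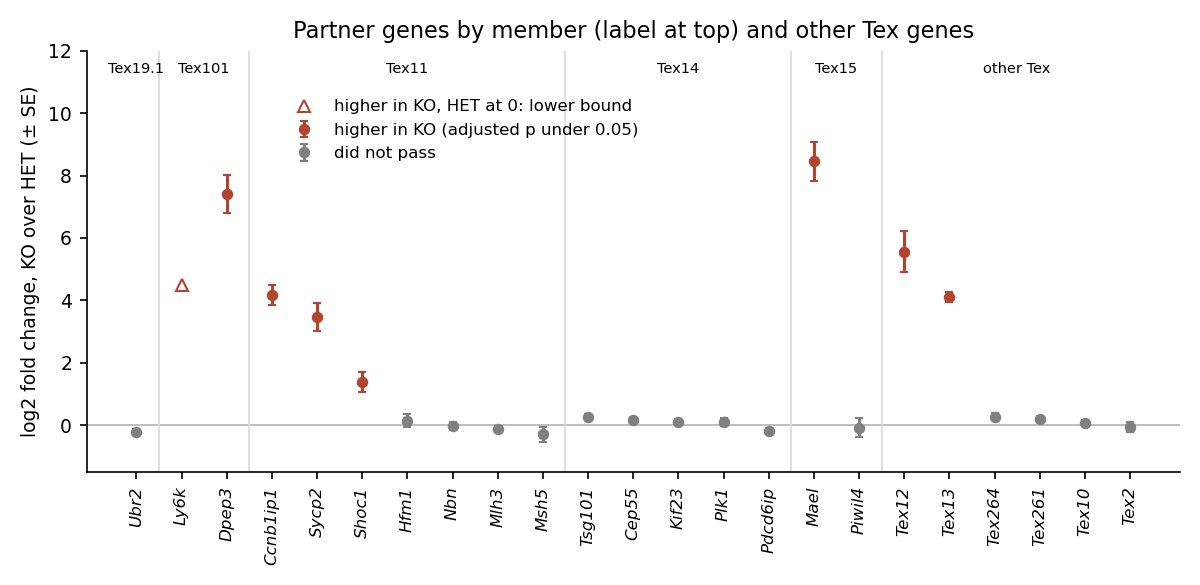
log2 fold change of KO over HET with its SE (vertical axis) for the partner genes reported here, grouped by the Tex gene named at the top, and for the other Tex genes tested. Higher genes are red, an open triangle marks a lower bound where HET was at 0, and the partners of Tex14 all lie between -0.19 and 0.27.

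Genes with the most similar levels were found by the root mean square difference in log2(TPM + 1) over the 6 libraries, among protein-coding genes with symbols other than Gm and a number or a Rik ending. The nearest to Tex19.1 were Zscan4d (0.219) and Xlr4a (0.325), and the nearest to Tex101 were Rhox2d (0.141) and Syce1 (0.164). Tex19.2 was nearest to Xlr5b (0.092) and Mbl2 (0.094), and Tex11 to Tex12 (0.124) and Kcnh1 (0.192). Tex15 was nearest to Enpp6 (0.230) and Rnf183 (0.264), and Tex14 to Mitf (0.151) and Pcdhb15 (0.177). The short transcripts of Tex14 weigh on its TPM, so its nearest genes are uncertain. On counts Mitf and Pcdhb15 had log2 fold changes of 0.90 and 1.16, against 2.06 for Tex14. Zscan4d, Xlr4a, Xlr5b and Rhox2d belong to families of near-identical copies, so their own levels are uncertain.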

How the data were processed

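The authors deposited 1 kallisto table per library with, per the file headers, estimated counts, TPM and effective lengths per transcript. The submitters' processing notes name kallisto and mm10. The kallisto version, index annotation, strandedness and read length are not given in the labels or headers. Antisense genes may share reads with a named gene. RNA was 50 ng per library, per the labels' protocols.

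GENCODE vM1 (NCBIM37) paired 74519 of 96626 transcripts with 26496 symbols, holding 92.4% to 92.82% of the counts. Estimated counts from the deposited tables were summed per symbol and rounded. edgeR 4.0.16 (limma 3.58.1, R 4.3.3) ran its quasi-likelihood test with TMM, filterByExpr and robust dispersions, KO against HET without covariates, with Benjamini-Hochberg adjustment over 16955 genes at 0.05. SE is the absolute log2 fold change over the root of F. CPM uses TMM library sizes. Deposited TPM was summed per symbol and gave levels per length and limma tests on log2(TPM + 1) or log2(TPM + 0.1), with a mean TPM of at least 1 where filtered. The deposited effective lengths (a value in bases) entered as an offset. Libraries were called male above 50 CPM of 4 Y-linked genes. Other alternatives were DESeq2 1.42.0, its size factors, library totals, other filters, voom, a replicate block, sex and each library left out.

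The members and lists were chosen with earlier results of these data known. Named genes are the members, called Tex genes, partners (1 counted in the list totals is not reported here) and the 2 nearest genes in level to each called member. The labels do not say that libraries came from separate embryos, so p-values measure the spread between these samples. Intervals and floors cover counting error only. No 2 libraries agreed within sampling noise (chi-square per degree of freedom at least 14.17).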

Additional observations from a re-analysis of the deposited data

How the results depend on the processing

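Of 135 alternative values of the members' log2 fold changes over 20 alternatives, 128 kept their direction and side of the threshold. Tex14 lost its call in 4: log2(TPM + 1) gave 0.379, log2(TPM + 0.1) gave 0.603, log2(TPM + 1) without a filter gave 0.379 and the transcript length offset gave 0.776, while the call held in edgeR, with and without the length offset, when transcripts under 500 bases of all genes were left out (not run on TPM). Tex16, never called, turned to 0.105 on log2(TPM + 1) without a filter, to 0.341 with the length offset, and ranged from -0.804 to 0.817 without 1 library. Without 1 HET library Tex12 moved to 6.59 (replicate 3) and Dpep3 to 8.93 (replicate 1), against 5.56 and 7.41 with all. Genes called over the whole table were 1944 with DESeq2, 2618 with library totals and 642 to 1185 without 1 library. The lowest counts were 642 without KO replicate 2 and 756 without HET replicate 2. Tex16 gave no value under the stricter filter or the filters on mean TPM, and Tex19.2 gave none under the filters on mean TPM. Same-numbered libraries did not deviate together (correlations -0.068, -0.029 and -0.043), and with a replicate block 6 members and 972 genes were called. At this depth 3 counts limit what can be said of Tex13a.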
